A study of Mus musculus with 12 samples.

Results

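The transcripts described here encode 9 ATP-binding cassette (ABC) transporters of drugs, conjugates and sterols, Abcb1a, Abcb1b, Abcc1, Abcc3, Abcc4, Abcc5, Abcg1, Abcg2 and Abca1. The genes were selected by symbol, with earlier results of these arrays known, and they are 9 of the 30098 genes with a probe set of their own. Each of the 9 was read by a single probe set. RNA of mouse B-cell lymphoma lines was measured on Affymetrix GeneChip Mouse Transcriptome Array 1.0, with 3 cultures in each of 4 groups and 1 array per culture. Both lines, 3s and 30s, were grown from lymphomatous spleens of C57BL6/CBA mice that were Mx1Cre+, EµMyc and p53+/-. The 3s line carried Rx1fl/fl, a floxed Runx1 gene, and the 30s line carried Rx1WT/WT, which Cre cannot excise. The study's text describes the 3s line as p53 null. Cells of each line received IFNβ at 50 U/ml, or PBS with BSA as the vehicle, for 72 hours, and were then replated and cultured without it for 6 more days. The Mx1 promoter that drives Cre responds to interferon, and the Eµ enhancer drives Myc in B cells. IFNβ over vehicle in 3s cells therefore combined excision of Runx1 with exposure to IFNβ and Cre, and the same comparison in 30s cells held the exposure without the excision. Each genotype was 1 line from 1 lymphoma, so Runx1 genotype and any other difference between the lines cannot be told apart. The genotype entry of the labels follows the treatment in both lines and disagrees there with the cell name and the sample title. The groups follow the titles.

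ABC transporters use the energy of ATP hydrolysis to move substrates across membranes. Abcb1a and Abcb1b encode the mouse P-glycoproteins, which pump hydrophobic drugs such as anthracyclines, vinca alkaloids and dexamethasone out of cells and are the counterparts of a single human gene. Abcg2 encodes the breast cancer resistance protein, known for the side population of blood-forming cells. The Abcc genes encode multidrug resistance-associated proteins, which export conjugated and anionic compounds, and Abca1 and Abcg1 export cholesterol and phospholipid to lipoproteins. In lymphoid tumours the P-glycoproteins are best known for resistance to chemotherapy.

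RefSeq promoter windows for GRCm38.p6, each 300 bases with 250 before the start site and 50 after it, were at hand for 6 of the 9 genes (9 windows). Those of Abcb1b and Abcb1a, neighbouring sister genes, are shown because Abcb1b passed the tests after IFNβ below and Abcb1a did not. The 2 genes were not tested against each other. The first window of Abcg2 is shown because it held the most matches to the Runx core motif. Capitals mark the Runx core (TGTGGT or TGCGGT), the CCAAT box and the GC box (GGGCGG), on either strand, in the orientation of the gene. The windows lie at chr5:8797897-8798196 on the plus strand for Abcb1b, chr5:8566841-8567140 on the plus strand for Abcb1a and chr6:58584283-58584582 on the plus strand for Abcg2.
Abcb1b: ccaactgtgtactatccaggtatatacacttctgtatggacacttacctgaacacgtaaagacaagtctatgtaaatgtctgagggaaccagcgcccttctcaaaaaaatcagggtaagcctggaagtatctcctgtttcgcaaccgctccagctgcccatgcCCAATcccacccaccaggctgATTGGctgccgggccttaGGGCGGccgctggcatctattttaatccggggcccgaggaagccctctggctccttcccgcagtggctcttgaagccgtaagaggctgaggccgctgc
Abcb1a: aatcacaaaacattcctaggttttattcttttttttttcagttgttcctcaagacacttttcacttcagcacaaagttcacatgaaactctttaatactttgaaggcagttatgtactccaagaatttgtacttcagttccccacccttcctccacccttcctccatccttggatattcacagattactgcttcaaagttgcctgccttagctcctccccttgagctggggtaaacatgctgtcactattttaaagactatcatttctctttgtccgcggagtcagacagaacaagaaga
Abcg2: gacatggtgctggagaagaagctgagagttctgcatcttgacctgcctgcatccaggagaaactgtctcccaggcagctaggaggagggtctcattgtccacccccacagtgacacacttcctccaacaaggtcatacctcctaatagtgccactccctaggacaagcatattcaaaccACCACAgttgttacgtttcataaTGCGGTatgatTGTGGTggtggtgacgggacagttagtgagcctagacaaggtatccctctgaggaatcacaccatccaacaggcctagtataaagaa
The Abcb1b window held a CCAAT box at position -87, an inverted CCAAT box at -66 and a GC box at -48, counted in bases from the start site. The Abcb1a window held no match to these letters, nor to TATAAA or the E box CACGTG. The Runx core was present in 2 of the 9 windows, with 3 matches in that of Abcg2 at -71, -48 and -37 and 1 match in that of Abcc5 at -40. No match overlapped another in these windows. Over all 32851 promoter windows, 22.4% held a Runx core, 37.4% a CCAAT box and 35.7% a GC box. A match is a description of the letters and not of binding.

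Values are log2 intensities from robust multi-array averaging (RMA), and the levels of the 9 transcripts are not compared with each other, since each has its own probe set. The 12 arrays had median values of 5.28 to 5.35, and any pair of arrays correlated at 0.9875 or more over all probe sets. As a description of the cells, 8 of 11 B-lineage markers measured had a mean over the 12 arrays above 8 (among them Cd79a, Cd79b, Pax5 and Ebf1), against 1 of 12 myeloid markers (Cd68), 0 of 10 T and NK markers, 0 of 4 erythroid markers and 1 of 9 stromal and endothelial markers (Pecam1). These counts rest on different probe sets read against a single level, and the remaining B-lineage markers, Vpreb1, Igll1 and Dntt, had means of 6.63, 7.52 and 4.47. Runx1 itself read 7.90 ± 0.11 (SD, n = 3) in 3s vehicle and 7.88 ± 0.18 in 3s IFNβ arrays, and 8.24 ± 0.12 and 8.32 ± 0.11 in the 30s groups. The sources used here do not say which exons its probe set covers, and excision of the floxed part is not read from this level.

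Abcb1b was the transporter transcript that changed after IFNβ, and it went down in 3s cells and up in 30s cells. In each of those comparisons 1 of the 9 transcripts passed the test (limma, adjusted p under 0.05), where 1.02% of all genes passed in 3s cells and 1.15% in 30s cells. For the difference between the IFNβ effects in the lines 1 of 9 passed, again Abcb1b, against 1.02% of all genes. Between the untreated lines 7 of 9 passed, 2 higher and 5 lower in 3s cells, against 24.9% of all genes and 48.0% of the genes with a mean of at least 6. The values of IFNβ and vehicle arrays did not overlap for 3 of 9 transcripts in 3s cells (Abcb1b, Abcg1, Abca1; 13.4% of all genes) and for 4 of 9 in 30s cells (Abcb1b, Abcc1, Abcg2, Abca1; 18.7% of all genes). Vehicle arrays of the lines did not overlap for 7 of 9 transcripts (38.2% of all genes). The shares were higher among the 12822 genes with a mean of at least 6. Of these, 2211 did not overlap in 3s cells, 3808 in 30s cells and 7822 between the vehicle groups.

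**Figure D1:**
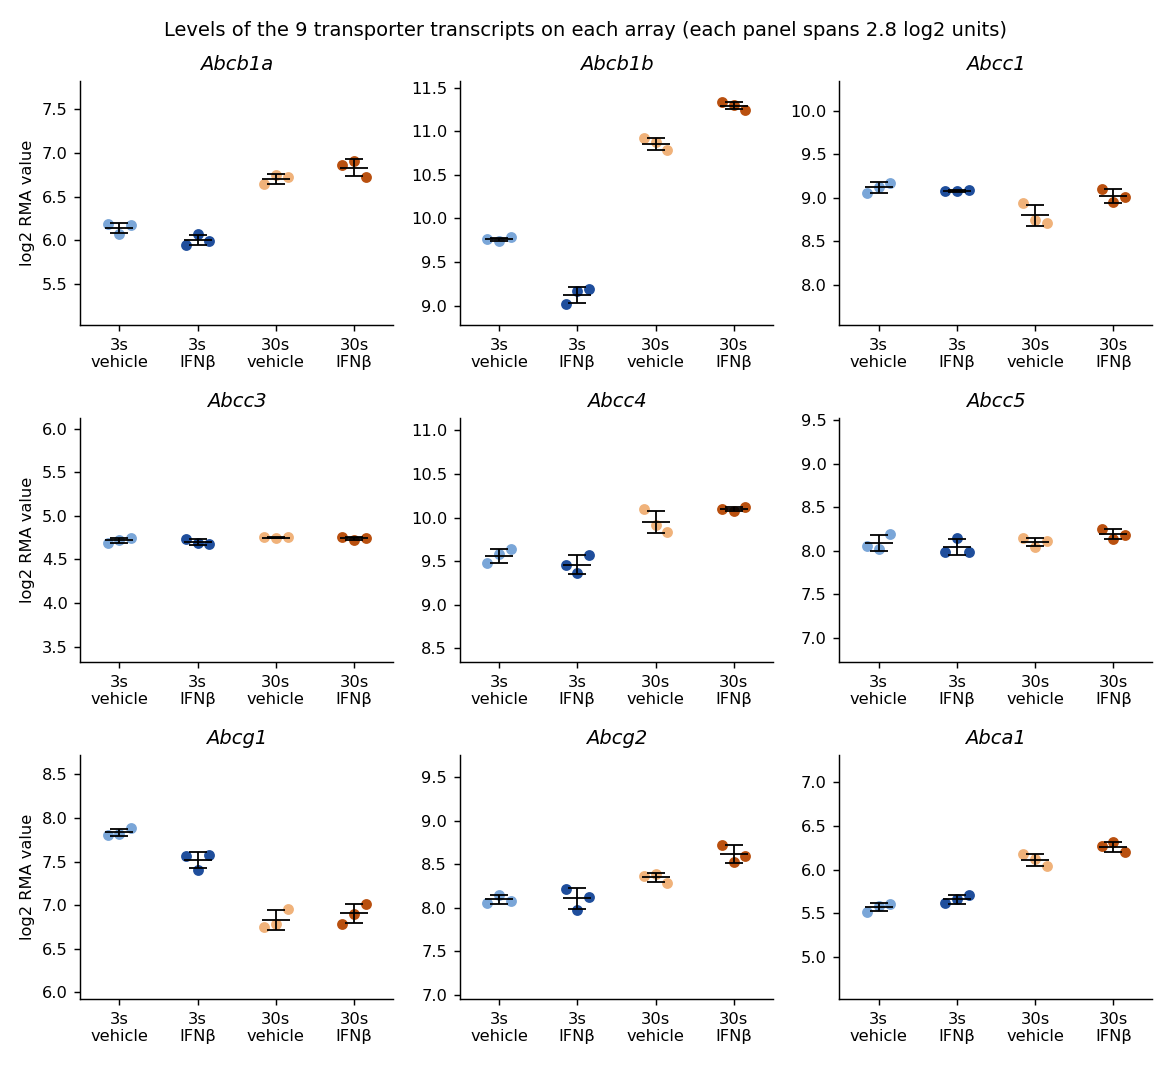
Log2 RMA value of each transporter transcript (vertical axis, 2.8 log2 units in every panel) on the 12 arrays by group. Points are arrays, and lines give the mean ± SD of 3 arrays. Abcb1b stands lowest in 3s IFNβ arrays (9.12) and highest in 30s IFNβ arrays (11.29), and Abcc3 stays between 4.68 and 4.76.

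Abcb1b encodes the P-glycoprotein that was named mdr1 in the mouse. In 3s cells its level was 9.76, 9.74 and 9.79 in vehicle replicates 1, 2 and 3, and 9.02, 9.17 and 9.19 in the IFNβ replicates. Every IFNβ array lay below every vehicle array of this line. In 30s cells the vehicle replicates read 10.92, 10.87 and 10.78 and the IFNβ replicates 11.33, 11.30 and 11.24. Here every IFNβ array lay above every vehicle array.

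The fall of Abcb1b in 3s cells was 1.56-fold (log2 difference -0.64, SE 0.05, 95% interval -0.76 to -0.52, adjusted p = 0.000146). The rise in 30s cells was 1.35-fold (log2 difference 0.44, SE 0.05, interval 0.32 to 0.56, adjusted p = 0.00456). Tested directly, the IFNβ effect in 3s cells minus that in 30s cells was -1.08 on the log2 scale (SE 0.08, interval -1.24 to -0.91, adjusted p = 0.000112). By p-value Abcb1b ranked 5 among the 30098 genes for this difference, 24 in 3s cells and 35 in 30s cells. Fitting the 30s arrays alone, in which no gene passed and 3799 had an unadjusted p under 0.05, gave an adjusted p of 0.0516 for the rise.

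The untreated lines also differed in Abcb1b, which was 2.13-fold lower in 3s than in 30s vehicle arrays (log2 difference -1.09, SE 0.05, adjusted p = 6.16e-08). After IFNβ the ratio between the lines was 4.49. The order of the groups was 3s IFNβ, 3s vehicle, 30s vehicle and 30s IFNβ from low to high, and each neighbouring pair in that order differed past the test. In RNA of whole cultures, fewer cells with the transcript and less transcript per cell cannot be told apart. The mean over the 11 B-lineage markers reached 11.08 in 3s vehicle and 10.97 in 3s IFNβ arrays at most, and ran from 11.30 to 11.39 and 11.38 to 11.48 in the 30s groups. Of these markers 8 of 11 were below 0 in 3s cells and 5 of 11 above 0 in 30s cells. Over all genes 51.1% were below 0 in 3s cells, and 16016 of 30098 were above 0 in 30s cells. Among the markers 0 passed in 3s cells and 1 in 30s cells (limma; 3 and 4 with an unadjusted p under 0.05). Igll1, a component of the surrogate light chain of pre-B cells, had log2 differences of -0.61 in 3s cells (adjusted p = 0.295) and 0.92 in 30s cells (adjusted p = 0.049), and these effects differed by -1.53 (SE 0.27, adjusted p = 0.0244). The call of that difference was lost without any 1 of 8 arrays, all but 3s IFNβ replicate 1, 3s vehicle replicate 2, 30s IFNβ replicate 3 and 30s vehicle replicate 1 (adjusted p up to 0.0692), and the call in 30s cells without any 1 of 11, all but 30s vehicle replicate 1 (up to 0.177). Igll1 was also 25.4-fold lower in 3s than in 30s vehicle arrays (log2 difference -4.66, SE 0.19, adjusted p = 1.45e-08). Both differences have the sign of those of Abcb1b and are larger. Igll1 had the largest differences of the 11 markers, and it is part of their mean. In 30s cells the IFNβ differences of the other markers ran from -0.15 (Cd79b) to 0.14 (Blnk). Between the vehicle groups Cd79a (0.52), Cd79b (0.65), Pax5 (0.74), Ebf1 (0.46) and Ptprc (0.26) were higher in 3s cells past the test. Vpreb1 (-0.71), Blnk (-0.41) and Cd24a (-0.13) were lower past it. The part of these markers in the Abcb1b result was not tested.

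**Figure D2:**
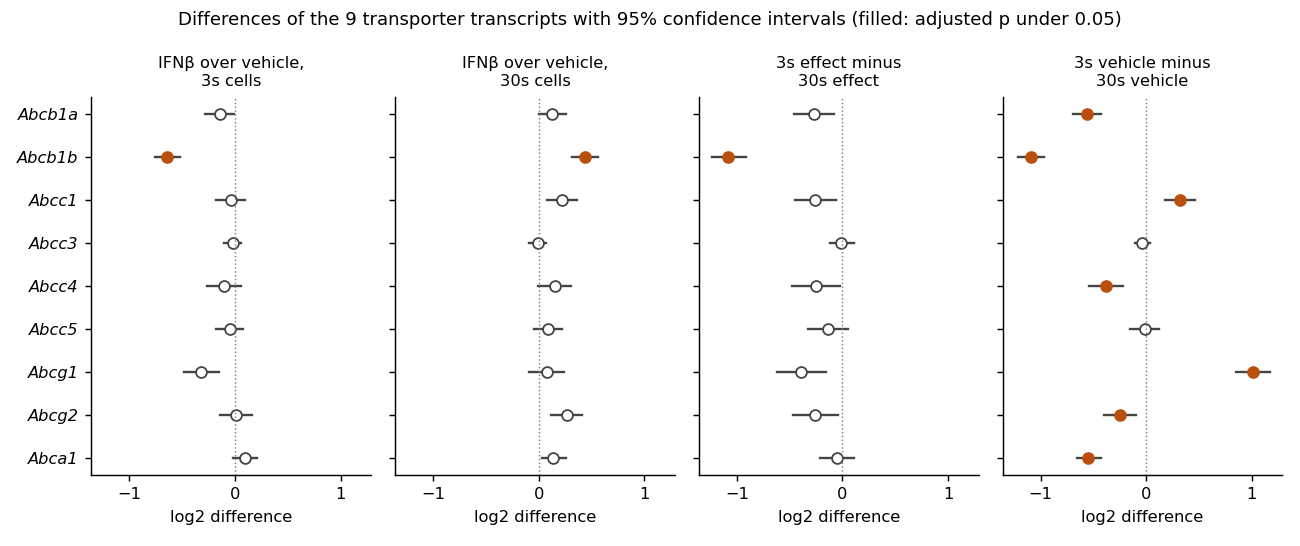
Log2 differences of the 9 transcripts (horizontal axis) for IFNβ over vehicle in each line, the 3s effect minus the 30s effect, and 3s over 30s vehicle. Points are differences of group means with 95% intervals, filled where the adjusted p is under 0.05. Abcb1b is filled in all 4 panels, and 7 of 9 transcripts are filled for the vehicle groups.

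Abcb1a encodes the sister P-glycoprotein, named mdr3, and is known as the form of the gut and the brain capillaries. Its level in 3s cells was 6.19, 6.07 and 6.17 with vehicle and 5.94, 6.07 and 5.99 with IFNβ. In 30s cells it was 6.64, 6.75 and 6.72 with vehicle and 6.86, 6.91 and 6.72 with IFNβ. The treated and untreated arrays overlapped in both lines, and all 30s arrays lay above all 3s arrays. The IFNβ differences were -0.14 (SE 0.06, adjusted p = 0.573) and 0.13 (SE 0.06, adjusted p = 0.386). The effects differed by -0.27 (interval -0.46 to -0.08, adjusted p = 0.223). These values had the signs of those of Abcb1b, without passing the test. Untreated, Abcb1a was 1.47-fold lower in 3s cells (log2 difference -0.56, SE 0.06, adjusted p = 3.19e-05). The 2 transcripts are closely related, and the sources used here do not say whether their probes tell them apart.

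The pair lies on chromosome 5, and 11 neighbouring genes with a probe set (5 on each side and Gm5106 between) were measured with them. None of the 11 passed the test after IFNβ in 3s or 30s cells or for the difference between the effects, and 0 of 11 had an unadjusted p under 0.05 in any of these 3 comparisons (limma). Abcb4, which encodes the phosphatidylcholine exporter of bile and lies next to Abcb1b, had log2 differences of -0.05 in 3s cells and 0.01 in 30s cells. Of the 11, 6 passed between the vehicle groups, 1 higher and 5 lower in 3s cells. Of all genes 24.9% passed there, and 48.0% of those with a mean of at least 6. Rundc3b had the largest of these differences, with 7.99 ± 0.02 (SD, n = 3) in 3s vehicle and 10.34 ± 0.08 in 30s vehicle arrays (log2 difference -2.34, SE 0.13, adjusted p = 1.17e-07). Tmem243 (-0.65) and Slc25a40 (-0.59), a mitochondrial carrier, were also lower in 3s cells. Crot, a peroxisomal carnitine acyltransferase, was higher (0.22, adjusted p = 0.00315).

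**Figure D3:**
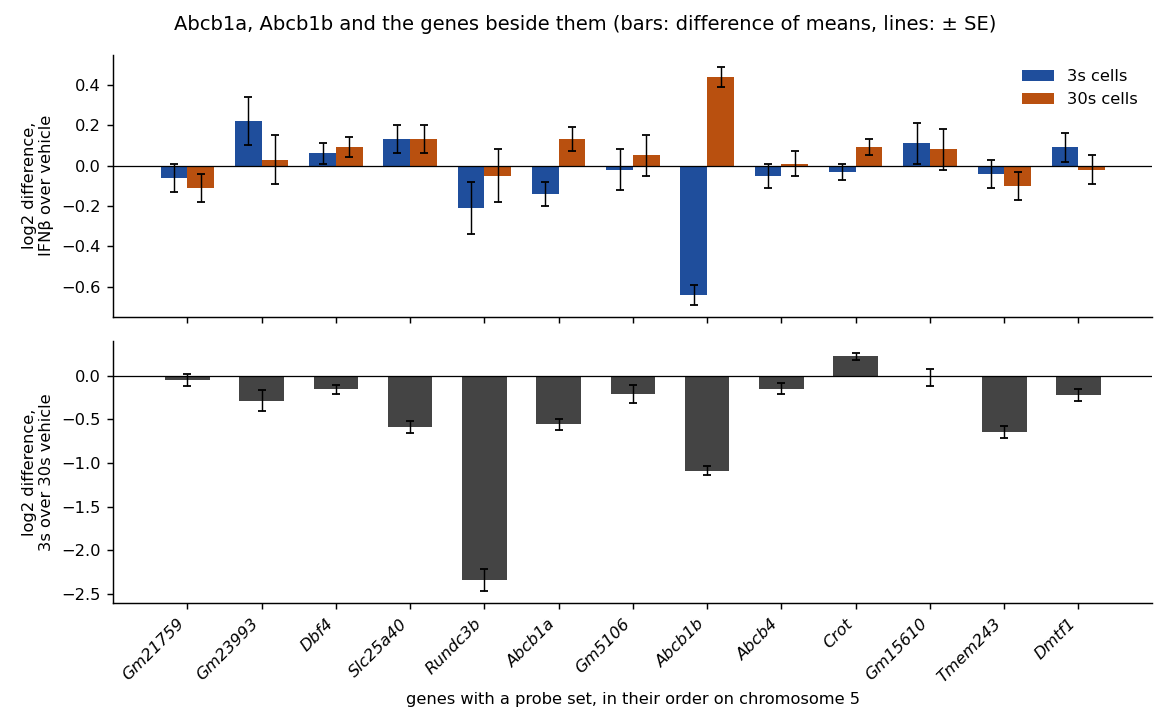
Log2 differences of Abcb1a, Abcb1b and the 11 genes around them, in their order on chromosome 5 (horizontal axis, not to distance). The upper panel gives IFNβ over vehicle in 3s and 30s cells and the lower panel 3s over 30s vehicle, as bars with ± SE. After IFNβ Abcb1b alone of these 13 genes passed the test, with -0.64 and 0.44, and Rundc3b has the longest bar between the lines (-2.34).

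Abcg2 exports porphyrins, urate and drugs such as mitoxantrone and topotecan. In 30s cells its level was 8.37, 8.39 and 8.29 with vehicle and 8.72, 8.53 and 8.59 with IFNβ, and the groups did not overlap. In 3s cells it was 8.06, 8.15 and 8.08 with vehicle and 8.22, 7.98 and 8.13 with IFNβ, and the vehicle arrays lay within the range of the IFNβ arrays. The difference in 30s cells was 0.27 (SE 0.07, interval 0.12 to 0.41, adjusted p = 0.0915) and missed the threshold over all genes. It passed with genes of a mean under 6 left out (adjusted p = 0.0453). In 3s cells the difference was 0.01 (SE 0.07, adjusted p = 0.994), and the 2 effects differed by -0.26 (interval -0.47 to -0.04, adjusted p = 0.325). In vehicle arrays Abcg2 was 1.19-fold lower in 3s cells (log2 difference -0.25, SE 0.07, adjusted p = 0.0171). That call was lost without 3s vehicle replicate 1 or 3 or 30s vehicle replicate 1 or 2, with an adjusted p of up to 0.0616.

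Abcc1 encodes the multidrug resistance-associated protein that exports glutathione conjugates such as leukotriene C4. It read 9.06, 9.13 and 9.17 in 3s vehicle and 9.08, 9.08 and 9.09 in 3s IFNβ arrays. In 30s cells the values were 8.94, 8.75 and 8.71 with vehicle and 9.10, 8.95 and 9.01 with IFNβ. The 30s groups were separated by a narrow gap, and the 3s IFNβ arrays lay inside the vehicle range. The difference in 30s cells was 0.22 (SE 0.06, adjusted p = 0.127), and without 30s vehicle replicate 1, the highest of its group, it passed (adjusted p = 0.0498). In 3s cells it was -0.04 (SE 0.06, adjusted p = 0.967), so that the effects differed by -0.26 (interval -0.45 to -0.06, adjusted p = 0.276). Abcc1 was higher in 3s than in 30s vehicle arrays by 0.32 on the log2 scale (SE 0.06, adjusted p = 0.00242). After IFNβ this gap between the lines was 0.06.

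Abcc4 exports cyclic nucleotides and nucleotide analogues. Its level was 9.48, 9.58 and 9.64 in 3s vehicle and 9.46, 9.36 and 9.57 in 3s IFNβ arrays. In 30s cells it was 10.10, 9.91 and 9.84 with vehicle and 10.10, 10.08 and 10.12 with IFNβ. The treated and untreated arrays overlapped in each line, and every 30s array lay above every 3s array. The IFNβ differences were -0.10 (SE 0.07, adjusted p = 0.845) and 0.15 (SE 0.07, adjusted p = 0.412), with a difference between them of -0.25 (interval -0.48 to -0.02, adjusted p = 0.382). With vehicle alone, Abcc4 was lower in 3s cells (log2 difference -0.38, SE 0.07, adjusted p = 0.00215).

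The other multidrug resistance-associated transcripts did not pass any test. Abcc5, an exporter of cyclic nucleotides and nucleotide analogues, ranged from 7.99 to 8.25 over the 12 arrays. Its IFNβ differences were -0.05 and 0.09, its difference between the effects was -0.14 (interval -0.33 to 0.05, adjusted p = 0.634), and its vehicle groups differed by -0.01 (interval -0.15 to 0.12). Abcc3, an exporter of bile salts and glucuronides, ranged from 4.68 to 4.76, below the lowest array median of 5.28. Whether Abcc3 is expressed in these cells was not tested. Its 4 differences lay between -0.04 and -0.01, and the interval for the difference between the effects ran from -0.12 to 0.11.

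Of the sterol transporters, Abcg1, which passes cholesterol to high-density lipoprotein, showed the wider difference between the lines. Its level was 7.81, 7.82 and 7.89 in 3s vehicle and 7.57, 7.41 and 7.58 in 3s IFNβ arrays, and the groups did not overlap. In 30s cells it was 6.75, 6.78 and 6.96 with vehicle and 6.79, 6.90 and 7.02 with IFNβ, which overlapped. The difference in 3s cells was -0.32 (SE 0.07, interval -0.48 to -0.15, adjusted p = 0.0897) and missed the threshold over all genes. It passed with genes of a mean under 6 left out (adjusted p = 0.0436). In 30s cells the difference was 0.08 (SE 0.07, adjusted p = 0.754), and the effects differed by -0.39 (interval -0.62 to -0.16, adjusted p = 0.138). Abcg1 was 2.01-fold higher in 3s than in 30s vehicle arrays (log2 difference 1.01, SE 0.07, adjusted p = 1.39e-06), opposite in sign to Abcb1b. After IFNβ the ratio between the lines was 1.53.

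Abca1 loads cholesterol and phospholipid onto apolipoprotein A-I. It read 5.51, 5.58 and 5.61 in 3s vehicle and 5.62, 5.66 and 5.71 in 3s IFNβ arrays, and 6.18, 6.12 and 6.04 against 6.27, 6.31 and 6.20 in 30s cells. The IFNβ arrays lay above the vehicle arrays in both lines. The differences did not pass the test, at 0.10 in 3s cells (SE 0.05, adjusted p = 0.721) and 0.14 in 30s cells (SE 0.05, adjusted p = 0.227). The effects differed by -0.05 (interval -0.21 to 0.11, adjusted p = 0.898). The vehicle arrays showed Abca1 1.46-fold lower in 3s cells (log2 difference -0.55, SE 0.05, adjusted p = 1e-05).

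Taking the 9 transcripts as a list, the IFNβ effect was lower in 3s than in 30s cells for 9 of 9, with a median difference of -0.26 against -0.01 over all genes. Of all genes, 53.9% lay below 0 in this comparison, and 59.1% of those with a mean of at least 6. The count was 9 of 9 under each of 3 other scalings of the arrays, and Abcc3, at -0.01, turned above 0 without 3s IFNβ replicate 3, 3s vehicle replicate 3 or 30s IFNβ replicate 1. In 30s cells 8 of 9 were above 0 (9 of 9 after centring the arrays on their medians), with a median of 0.14 against 0.01 over all genes. In 3s cells 7 of 9 were below 0, with a median of -0.05 against -0.00. Both effects are measured on the same arrays as their difference, so these counts are not separate evidence.

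Other transporters and the genes around these pathways were taken as lists. Of 42 other ABC transporters measured, 0 passed in 3s cells (limma, 3 had an unadjusted p under 0.05). In 30s cells 2 rose, and 1 passed for the difference between the effects. Of all genes, 1.02%, 1.15% and 1.02% passed in these comparisons. Those that rose were Tap1, which carries peptides into the endoplasmic reticulum for MHC class I, by 0.19 (adjusted p = 0.0359), and Abcb8, a mitochondrial transporter, by 0.33 (adjusted p = 0.0417). Tap1 read 7.74 ± 0.03 (SD, n = 3) and 7.65 ± 0.02 in 3s vehicle and IFNβ arrays, and 7.20 ± 0.02 and 7.39 ± 0.03 in 30s cells. Its effects differed by -0.28 (SE 0.05, adjusted p = 0.0313), and this call was lost on leaving out any 1 of the 12 arrays (adjusted p = 0.0536 to 0.0842). The rise of Tap1 was lost without any 1 of 10 arrays, all but 3s IFNβ replicate 1 and 3s vehicle replicate 3 (adjusted p up to 0.112). The rise of Abcb8 was lost without any 1 of 8 arrays, all but 3s IFNβ replicate 1, 3s vehicle replicates 2 and 3 and 30s IFNβ replicate 2 (adjusted p up to 0.154). Between the vehicle groups 11 of 42 passed (24.9% of all genes), 8 higher and 3 lower in 3s cells, among them Abca3 (0.82), a lipid transporter, Abcb6 (0.69) and Abcb10 (0.62), mitochondrial or porphyrin transporters, and Tap1 (0.54).

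Genes that take up drugs and nucleosides gave 1 call in each IFNβ comparison out of 27 solute carriers measured. Over all genes 1.02% passed in 3s cells, 1.15% in 30s cells and 1.02% for the difference between the effects. Slc29a2, an equilibrative nucleoside transporter, read 6.61 ± 0.07 (SD, n = 3) in 3s vehicle, 6.52 ± 0.02 in 3s IFNβ, 6.75 ± 0.06 in 30s vehicle and 7.09 ± 0.05 in 30s IFNβ arrays. It rose by 0.34 in 30s cells (SE 0.05, adjusted p = 0.00861), and its effects differed by -0.43 (SE 0.07, adjusted p = 0.013). Both calls were kept on leaving out each array. Slco4a1, an organic anion transporter, rose by 0.40 in 3s cells (SE 0.07, adjusted p = 0.0173), a call lost without 3s IFNβ or 3s vehicle replicate 2 or 3 (adjusted p up to 0.087). Between the vehicle groups 8 of 27 passed (24.9% of all genes), 3 higher and 5 lower in 3s cells, with Slco5a1 at -0.79 and Slc19a2, a thiamine carrier, at 0.45.

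The genes of sterol handling and of Abcb1 control gave 1 call after IFNβ. The shares of all genes were 1.02% in 3s cells, 1.15% in 30s cells and 1.02% for the difference between the effects. Of 15 genes of sterol efflux and the liver X receptor pathway, 1 passed in 3s cells, Npc2, which hands cholesterol out of the lysosome (0.31, SE 0.05, adjusted p = 0.0104). That call was lost without 3s IFNβ replicate 3 or 3s vehicle replicate 1 (adjusted p up to 0.0547). In 30s cells 0 of 15 passed (limma; 5 with an unadjusted p under 0.05), and 0 of 15 for the difference (4 with an unadjusted p under 0.05). Of 20 genes of sterol synthesis and uptake, 0 passed in 3s cells, 30s cells and the difference (limma; 0, 3 and 4 with an unadjusted p under 0.05). Of 13 xenobiotic receptors and regulators of Abcb1, 0 passed in these comparisons (limma; 2, 3 and 3 with an unadjusted p under 0.05). Between the untreated lines there were 8 of 15, 13 of 20 and 7 of 13 genes past the test. Of all genes 24.9% passed, and 48.0% of those with a mean of at least 6. In the same order of lists, 5, 5 and 4 genes were higher in 3s cells and 3, 8 and 3 lower. The median difference of the 20 sterol synthesis and uptake genes was 0.0. Fdps, which makes farnesyl pyrophosphate, was 2.79-fold lower in 3s cells (log2 difference -1.48, SE 0.07, adjusted p = 2.78e-08), and Insig1, which holds back sterol synthesis, was 1.68-fold lower. Ahr, the aryl hydrocarbon receptor, and its partner Arnt were lower by -0.55 and -0.54, and Egr1 was higher by 0.51.

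Abcb1b was the transporter whose values spanned at least 0.5 within a line (0.77 in 3s and 0.55 in 30s cells), and its pattern was set against 8637 named genes with a mean of at least 6. With each line's mean subtracted, the genes most like it over the 12 arrays were Mapre2, which encodes a microtubule end-binding protein (r = 0.98), Ppp3cc, a catalytic subunit of calcineurin (r = 0.949), and H2-D1, an MHC class I heavy chain (r = 0.948). The 12 points share the same 4 groups, so these values describe likeness and are given without a test. The log2 differences after IFNβ in 3s and in 30s cells were -0.24 and 0.18 for Mapre2, -0.28 and 0.23 for Ppp3cc, and -0.13 and 0.09 for H2-D1. All 3 had smaller differences than Abcb1b in both lines. Between the lines, which the measure of likeness did not use, the vehicle arrays differed by -0.44 for Ppp3cc (adjusted p = 8.42e-05), 0.44 for H2-D1 (adjusted p = 2.35e-06) and -0.03 for Mapre2 (adjusted p = 0.639).

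**Figure D4:**
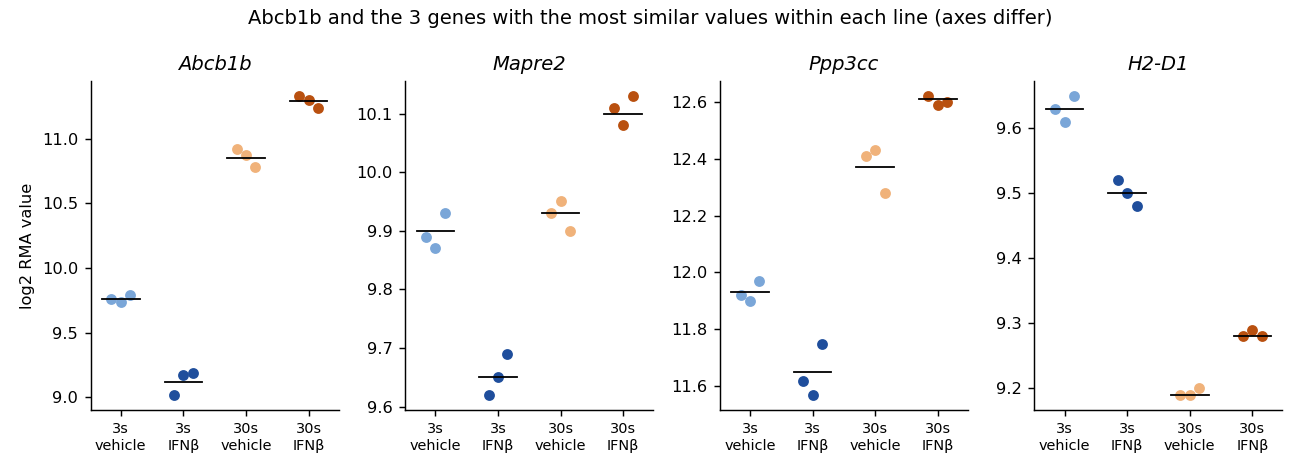
Log2 RMA values (vertical axes, which differ in range) of Abcb1b and of the 3 genes with the most similar values once each line's mean is subtracted, by group. Points are arrays and lines are means of 3 arrays. In all 4 genes the IFNβ arrays lie below the vehicle arrays in 3s cells and above them in 30s cells, from 9.76 to 9.12 and from 10.85 to 11.29 for Abcb1b.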

How the data were processed

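The authors deposited log2 values of 12 Affymetrix Mouse Transcriptome Array 1.0 hybridisations, made by RMA. The submitters' processing notes name Affymetrix Expression Console 1.4, and the study's methods name Partek for normalisation and statistics. The sources used here do not give the genome build of the annotation. The values were used as deposited. Of 72688 rows, 6732 are controls, 30638 probe sets carry 1 gene symbol, 2176 several and 33142 none. Symbols of 330 probe sets were updated through RefSeq, and the brightest probe set of a gene was kept, giving 30098 genes.

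The 4 group means were fitted together (limma 3.58.1 under R 4.3.3, with 8 residual and 3.15 prior degrees of freedom) and contrasted with two-sided tests, with the Benjamini-Hochberg adjustment over all genes. Calls of a rise, fall or difference were made at an adjusted p under 0.05. The fit was tested on simulated data. The number of arrays limits the precision. Each p-value of this fit rests on 1 spread per gene, pooled over the 4 groups of both lines and moderated across genes. That spread is between cultures within a group, and not between lymphomas. The 9 transporters, the lists and the tests were chosen with earlier results of these data known, including that for Abcb1b. All 9 were named, with up to 4 genes per list and comparison that passed, by smallest adjusted p, the genes beside Abcb1a and Abcb1b, and the 3 genes most like a transporter spanning at least 0.5 within a line. Promoter windows come from RefSeq, with symbols matched. Alternatives were the arrays compared alone, a replicate block, trended and robust moderation, the methods' t-test, 3 scalings, dim genes left out, every probe set or the mean of a gene's probe sets, the study's thresholds, and each array left out.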

Additional observations from a re-analysis of the deposited data

Results flagged for a closer look

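Of the transporters, the listed genes and the cell type markers, 4 passed the test of a difference between the IFNβ effects in the lines (limma, 3s effect minus 30s effect). The 4 were 1 of 9 transporters, 1 of 42 other ABC transporters, 1 of 27 solute carriers and 1 of 11 B-lineage markers. The 15, 20, 13 and 11 genes of the other lists held none. Over all genes 1.02% passed this test, and 2.11% of those with a mean of at least 6. Abcb1b differed by -1.08 (adjusted p = 0.000112), from -0.64 in 3s cells and 0.44 in 30s cells. Slc29a2, a nucleoside transporter, differed by -0.43 (adjusted p = 0.013), and Tap1, the peptide transporter, by -0.28 (adjusted p = 0.0313). Igll1, a B-lineage marker, differed by -1.53 (adjusted p = 0.0244), from -0.61 in 3s cells and 0.92 in 30s cells. The call of Tap1 was lost on leaving out any 1 of the 12 arrays, and that of Igll1 on leaving out any 1 of 8. Abcb1b and Slc29a2 kept theirs on leaving out each array. Genes chosen for their likeness to Abcb1b are left out here, since the choice used the same pattern. No cause of these differences was tested.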

How the results depend on the processing

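Abcb1b kept the direction and the call of its difference between the lines in all 21 alternatives (-1.11 to -1.02, adjusted p up to 0.00566), and its fall in 3s cells in 23 of 24, all but the methods' t-test after adjustment (0.116). Its rise in 30s cells was kept in 22 of 24, lost with the 30s arrays alone (0.0516) and in the methods' t-test after adjustment (0.172). Abcc1 between the vehicle groups was lost in the adjusted t-test (0.073) and at the study's thresholds, Abcc4 in the adjusted t-test (0.0694), and Abcg2 at the study's thresholds.

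The number of transporters past the test in 3s cells was 1, and 2 by the methods' t-test unadjusted, 0 by it adjusted, and 2 with dim genes left out. In 30s cells it was 1, and 0 with only the arrays compared, 2 by the methods' t-test unadjusted, 0 by it adjusted, 2 with dim genes left out, and 1 to 2 on leaving out 1 array. At an unadjusted p under 0.05, the fits with 0 had 2 transporters in 3s cells, and 4 (arrays compared alone) and 2 (t-test) in 30s cells. For the difference between the effects it was 1, and 2 at the study's thresholds (an unadjusted p and a fold change), which add Abcg1. Between the vehicle groups it was 7, and 5 in the adjusted t-test, 5 at the study's thresholds, 6 with dim genes left out (Abca1 was not tested there) and 6 to 7 on leaving out 1 array.

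Over all genes, 307 passed in 3s cells (154 with the arrays compared alone, 172 with the replicate block, 8 in the adjusted and 2278 in the unadjusted t-test, 190 to 299 on leaving out 1 array). In 30s cells 346 passed (0, 95, 1 and 3562 in the same order, 741 without dim genes, 587 at the study's thresholds, 97 to 354 on leaving out 1 array). With the 30s arrays alone 3799 genes had an unadjusted p under 0.05. For the difference between the effects 307 passed (132 with the replicate block, 461 without dim genes, 1234 at the study's thresholds, 184 to 241 on leaving out 1 array). Between the vehicle groups 7489 passed (4944 in the adjusted t-test, 4581 at the study's thresholds). The share of calls that were higher was 56.6% in 30s cells, and 40.6% after quantile normalisation, 37.5% after cyclic loess, 25.3% with the replicate block and 67.1% with dim genes left out, and 30.9% (without 30s IFNβ replicate 1) to 58.2% on leaving out 1 array.

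Some values near 0 that did not pass changed sign. On leaving out 1 array, Abcc5 in 3s cells ran from -0.0996 to 0.00189, Abcg2 in 3s cells from -0.0467 to 0.0764, Abcc3 for the difference between the effects from -0.0211 to 0.00887, and Abcc5 between the vehicle groups from -0.0635 to 0.0193. After median centring Abcc3 was at 0.000233 in 30s cells and at 0.00344 between the vehicle groups, and Abcc5 at 0.0257 there.

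Replicate numbers are shared between groups, but same-numbered arrays did not deviate together (r from -0.097 to 0.126), so they are not taken as pairs. With the replicate block the count of transporters stayed at 1 in 3s cells, 1 in 30s cells and 1 for the difference, with Abcb1b at -0.64 and 0.44, while the calls of Tap1, Abcb8, Slc29a2, Npc2 and Slco4a1 were lost. The block could not be applied between the lines. With 3 arrays a group, differences of about the size of Abcg1 or Abcg2 after IFNβ fell on either side of the threshold, depending on how many genes were tested.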
